A study of Homo sapiens with 8 samples.

Results

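The transcripts described here are those of the mitochondrial chromosome. All 37 genes that GENCODE release 44 places on it were taken, with no selection by expression, out of 60675 genes in the count tables. They comprise 13 mRNAs, 2 rRNAs and 22 tRNAs. They were followed in the human cell line Panc10.05, which was established from a pancreatic tumour, and in a derivative with acquired resistance to indisulam, a sulfonamide that brings the splicing factor RBM39 to a ubiquitin ligase and leads to its degradation. RNA-seq gave 8 libraries, 2 in each of 4 groups. Parental cells were left untreated or received 2 µM indisulam for 18 h. Resistant indisulam cells were kept on 2 µM of the drug without a break, and resistant untreated cells had been without it for 1 wk, so the resistant untreated group has a history of exposure that the parental untreated group lacks. According to the study's methods, resistance was raised by growing the cells in rising doses and the libraries of a group are technical replicates. Every p-value below therefore measures the spread between 2 libraries of the same cells. The resistant group is 1 line, and whether it is a pool or a clone is not given in the sources used here. The growth and treatment notes in the labels name A549, a lung line. Titles and cell line fields say Panc10.05 and were taken as correct.

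The mitochondrial chromosome encodes a small core of the respiratory chain: subunits of complexes I, III and IV and of ATP synthase, with the rRNAs and tRNAs needed to translate them inside the organelle. Each strand is read by the polymerase POLRMT, with TFAM and TFB2M at the promoters, into long precursors from which tRNAs are cut at both ends, releasing the mRNAs and rRNAs between them. Most mitochondrial mRNAs and both rRNAs then receive short poly(A) tails, and their stability is set apart from their synthesis, with LRPPRC and SLIRP protecting mRNAs and PNPT1 and SUPV3L1 degrading RNA. All other proteins of the organelle are made from nuclear genes.

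The libraries held between 65266253 and 108002436 reads in genes. The epithelial genes EPCAM, KRT8, KRT18, KRT19 and KRT7 together reached 6123 to 11920 CPM (counts per 1e+06 reads in genes, scaled with TMM factors). PDX1, a defining pancreatic factor, had only 3 to 7 reads in a library, and GATA6 2.61 to 6.14 CPM, so the pancreatic label rests on the cell line's name and not on PDX1. Leukocyte markers (PTPRC, CD3E and LYZ) summed to at most 1 read, fibroblast markers to at most 8 and endothelial markers to at most 34. In bulk RNA, fewer mitochondria or mitochondrial genomes per cell and less RNA from each cannot be told apart.

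Of the 37 genes, 23 had enough reads to be tested: all 13 mRNAs, both rRNAs and 8 tRNAs (MT-TF, MT-TI, MT-TQ, MT-TA, MT-TS1, MT-TE, MT-TT and MT-TP). The other 14 tRNAs did not exceed 16 reads in any library, and 5 of them were at 0 in every library. The libraries were made from polyadenylated RNA, and a mature tRNA ends in CCA without a poly(A) tail, so tRNA counts here are not levels of mature tRNA.

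The tRNAs on which results below turn are shown first, each 5′ to 3′ on its own strand in GRCh38, with the anticodon in capitals. MT-TT, the threonine tRNA, is the last gene of the strand that carries most of the mRNAs and follows MT-CYB without a gap (chrM:15888-15953, plus strand). MT-TQ, for glutamine (chrM:4329-4400), MT-TA, for alanine (chrM:5587-5655), and MT-TP, for proline (chrM:15956-16023), lie on the minus strand. MT-TI, for isoleucine (chrM:4263-4331, plus strand), follows MT-ND1 and shares its last bases with MT-TQ on the other strand.
MT-TT: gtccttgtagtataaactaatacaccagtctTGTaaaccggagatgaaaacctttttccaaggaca
MT-TI: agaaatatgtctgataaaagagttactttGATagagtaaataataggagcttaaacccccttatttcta
MT-TQ: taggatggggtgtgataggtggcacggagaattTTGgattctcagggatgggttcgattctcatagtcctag
MT-TA: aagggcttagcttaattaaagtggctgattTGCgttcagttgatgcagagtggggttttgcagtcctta
MT-TP: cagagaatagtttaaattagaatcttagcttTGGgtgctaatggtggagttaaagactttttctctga

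Several mitochondrial genes share or adjoin bases, which matters for how a read is assigned. The end of MT-CYB (lower case) runs directly into MT-TT (capitals) at chrM:15858-15917, and the single T that closes MT-CYB becomes a stop codon only with the poly(A) tail; 6 of the 13 mRNAs end inside a codon in this way. MT-ATP8 and MT-ATP6 are read from 1 mRNA and overlap by 46 bases, and MT-ND4L and MT-ND4 by 7 bases, shown in capitals. A read that lies within an overlap cannot be given to 1 gene, so the values of these pairs are less certain than the others.
MT-CYB and MT-TT: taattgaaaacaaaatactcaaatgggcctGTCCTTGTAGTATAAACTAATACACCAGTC
MT-ATP8 and MT-ATP6: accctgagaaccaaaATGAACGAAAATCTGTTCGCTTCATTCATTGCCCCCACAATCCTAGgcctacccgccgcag
MT-ND4L and MT-ND4: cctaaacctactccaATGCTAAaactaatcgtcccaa

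The nuclear genome holds copies of these genes. Of 404 such pseudogenes in the tables, 55 had reads, and together they held 1.16% to 1.35% as many reads as the mitochondrial genes. MTATP6P1 on chromosome 1 (chr1:633696-634376) is as long as MT-ATP6 and differs from it at 10 of 681 bases. Its count was between 19.8% and 20.8% of that of MT-ATP6 in every library, so its share was alike in all 4 groups. A stretch with 1 difference, in capitals, shows how little separates the 2 genes.
MT-ATP6 (chrM:8635-8675): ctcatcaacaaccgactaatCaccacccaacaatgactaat
MTATP6P1 (chr1:633804-633844): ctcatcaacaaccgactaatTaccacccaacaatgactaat

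Mitochondrial genes took 2.24% to 4.33% of gene reads, and the share was highest in parental untreated cells and lowest in parental cells on indisulam. It was 4.19% and 4.33% in the parental untreated libraries and 2.61% and 2.24% in the parental indisulam libraries. In resistant cells it was 3.003% and 3.45% without the drug and 3.84% and 3.52% with it. The libraries of these 4 groups did not overlap in this share. As means, the shares were 4.26% ± 0.0988, 2.42% ± 0.262, 3.23% ± 0.317 and 3.68% ± 0.228 (SD, n = 2). The smallest p that an exact two-sided test of 2 libraries against 2 allows is 0.333. The share therefore has no test of its own and the test given next is that of the summed count in the model fitted over all genes.

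**Figure D1:**
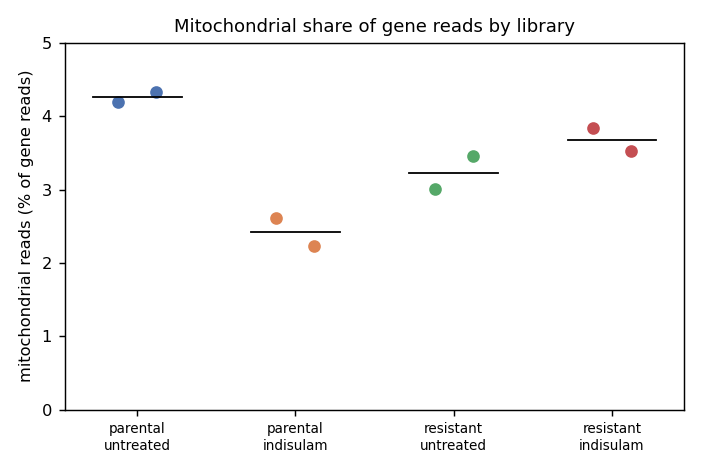
Reads of the 37 mitochondrial genes as a percentage of gene reads (vertical axis, from 0), 1 point per library, with the mean of each group as a line. Parental cells on indisulam are lowest at 2.61% and 2.24%, and the parental untreated libraries are highest at 4.19% and 4.33%.

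Per kilobase of gene length, the reads of the mRNA genes differed widely. In parental untreated cells MT-CO2, a complex IV subunit, was highest at 6667 ± 163 CPM per kb (SD, n = 2). MT-ND4 (complex I) at 5351 ± 135 and MT-CO3 (complex IV) at 5298 ± 153 CPM per kb followed and lay within each other's spread. MT-CO1, the catalytic subunit of complex IV, stood at 4937 ± 128 CPM per kb. MT-ATP6 (3387 ± 158), MT-ND1 (2941 ± 49.7), MT-ND4L (2915 ± 182), MT-CYB (2649 ± 55.2) and MT-ND2 (2087 ± 108 CPM per kb) came next, of which MT-ND1 and MT-ND4L did not differ beyond their spread. MT-ATP8, MT-ND3 and MT-ND5 had 1696 ± 26.6, 1576 ± 56.6 and 1082 ± 0.0922 CPM per kb. MT-ND6, the only mRNA of the opposite strand, was lowest at 305 ± 17.2 CPM per kb. Not every mitochondrial mRNA receives a poly(A) tail, and tailing was not measured. A level here, that of MT-ND6 included, therefore need not be the abundance in the cell. MT-ATP6 and MT-ATP8 differed per kb (3387 and 1696 CPM) though they are read from 1 mRNA. A difference per kb thus need not be one between mRNA molecules, and the part of read counting in it was not tested. The large-subunit rRNA MT-RNR2 reached 2422 ± 0.365 and the small-subunit rRNA MT-RNR1 453 ± 0.888 CPM per kb, in RNA selected for poly(A) tails.

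In parental cells, indisulam lowered mitochondrial transcripts of all complexes. The summed count of the 37 genes was 41386 and 42849 CPM untreated and 26836 and 23242 CPM on the drug, a log2 change of −0.75 ± 0.10 (SE; adjusted p = 0.0027). By edgeR's quasi-likelihood test with Benjamini-Hochberg adjustment over 16661 genes, 16 of the 23 tested members fell and none rose, whereas 58.2% of all tested genes were called and 26.6% were called lower. The median log2 change was −0.66 over the 23 members and 0.01 over all genes. Of the mRNAs, 12 of 13 fell, by 0.45 (MT-ND3) to 0.88 (MT-ATP8) on the log2 scale.

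MT-CO2, the member with the highest level per length, had 4481 and 4639 CPM in the untreated and 2884 and 2461 CPM in the treated parental libraries. The groups were well apart, with a log2 change of −0.77 ± 0.11 (adjusted p = 0.0035). The other complex IV mRNAs, MT-CO1 and MT-CO3, fell by 0.77 and 0.80 on the log2 scale (adjusted p = 0.0061 and 0.0058). For complex III, MT-CYB fell by 0.74 ± 0.13 (adjusted p = 0.0077), and for ATP synthase MT-ATP6 fell by 0.85 ± 0.14 (adjusted p = 0.0063). The complex I mRNAs MT-ND1, MT-ND2, MT-ND4L, MT-ND4 and MT-ND5 fell by 0.69 to 0.78.

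MT-ND6 stood apart from the other mRNAs. It is transcribed from the other strand and had 154 and 166 CPM in untreated and 134 and 140 CPM in treated parental cells. The groups did not overlap, but the log2 change of −0.23 ± 0.11 did not pass the threshold (adjusted p = 0.16). It did pass with only the 2 parental groups in the fit (adjusted p = 0.00024). The strand setting of the counting is not given in the sources used here, so reads from the opposite strand over MT-ND6 and the minus-strand tRNAs cannot be told apart from their own. Whether MT-ND6 was captured by the poly(A) selection as fully as the other mRNAs was not tested either.

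Both rRNAs fell. MT-RNR2 went from 3777 and 3776 CPM to 2542 and 2338 CPM, a log2 change of −0.63 ± 0.04 (adjusted p = 4.4e-10), and MT-RNR1 from 431 and 432 CPM to 314 and 298 CPM, a log2 change of −0.50 ± 0.03 (adjusted p = 1.6e-12). Among the tRNAs, MT-TI and MT-TP fell by 0.66 ± 0.16 (adjusted p = 0.00088) and 0.53 ± 0.15 (adjusted p = 0.0056), and the other 6 were not called. As classes, the 12 plus-strand mRNAs changed by −0.77 ± 0.11 (adjusted p = 0.0039), the rRNAs by −0.61 ± 0.04 (adjusted p = 1.8e-13), the plus-strand tRNAs by −0.47 ± 0.12 (adjusted p = 0.0011) and the minus-strand tRNAs by −0.27 ± 0.12 (adjusted p = 0.072).

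**Figure D2:**
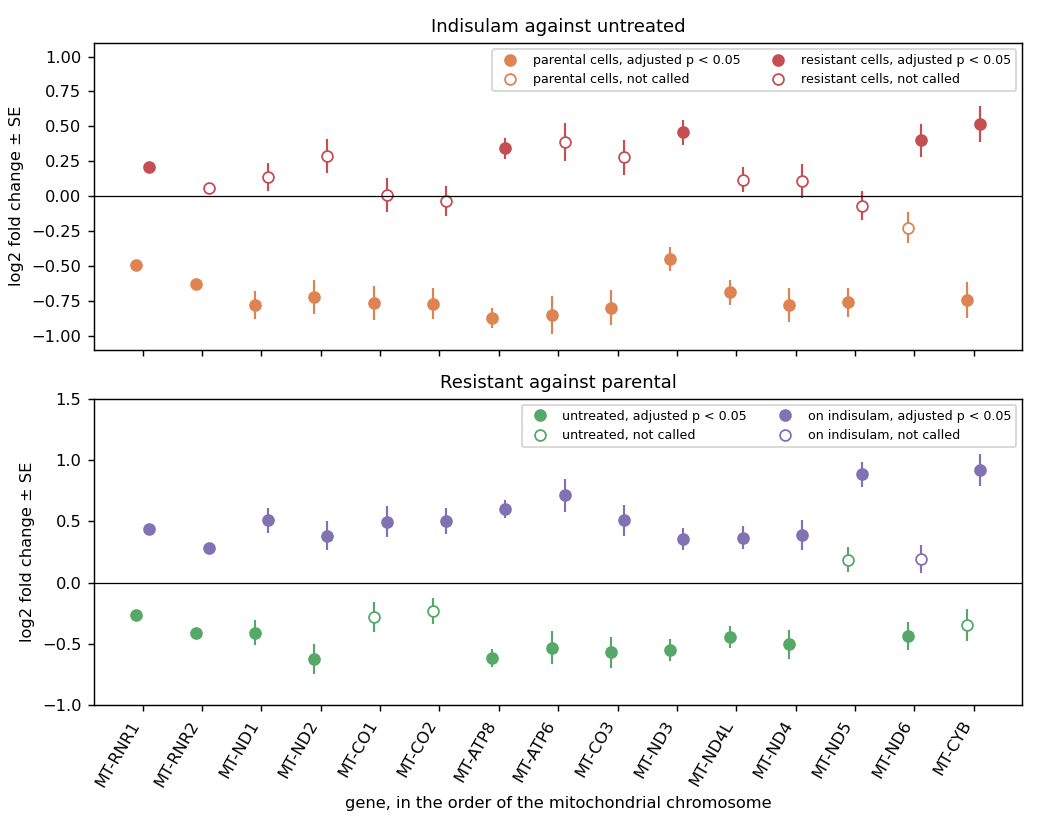
Log2 fold change ± SE (vertical axis) of the 13 mRNAs and 2 rRNAs in chromosome order, for indisulam against untreated in each line (upper panel) and for resistant against parental cells in each drug condition (lower panel), from the fit to all 8 libraries, with filled points for an adjusted p under 0.05. In the upper panel all parental points lie below 0, from −0.88 (MT-ATP8) to −0.23 (MT-ND6), and 13 of the 15 resistant points lie above 0.

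Reads marked as duplicates were left out of the counts upstream, and this lowers most the genes with many reads per base, the foremost of which are mitochondrial. MT-CO2 had up to 725 reads per base, and the nuclear gene with most, FTL, up to 278. Duplicates made up 17.5% and 18.4% of listed reads in parental indisulam libraries and 17.5% and 15.5% in parental untreated libraries. The 20 nuclear protein-coding genes with most reads per base had a median log2 change of 0.12 under the drug in parental cells, with 17 of 20 called higher and none lower, opposite to the mitochondrial genes. The part of duplicate removal in the mitochondrial change was not tested.

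In resistant cells the drug did not lower mitochondrial transcripts. The sum was 30278 and 34689 CPM in resistant untreated cells and 37477 and 34175 CPM in resistant indisulam cells, which overlapped, with a log2 difference of 0.14 ± 0.10 (adjusted p = 0.34). With only the 2 resistant groups in the fit the same difference passed (adjusted p = 0.0068). Of the 23 members, 7 were called higher and none lower, where 50.7% of all tested genes were called and 24.9% were called higher, so the count higher was near the share over all genes and the total below it. Without resistant indisulam replicate 1, only 3 members were called.

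The mRNAs higher in resistant cells on the drug were MT-CYB, MT-ND3, MT-ND6 and MT-ATP8. MT-CYB had 2177 and 2584 CPM off the drug and 3579 and 3237 CPM on it, so that the groups did not overlap, and its log2 difference was 0.52 ± 0.13 (adjusted p = 0.029). This call was lost with a replicate block (adjusted p = 0.054) and without a filter on low counts (adjusted p = 0.059). It was also lost without any 1 library of parental untreated or resistant indisulam or resistant untreated replicate 1. The difference then lay between 0.40 and 0.59. MT-ND3 was higher by 0.46 ± 0.09 (adjusted p = 0.011) and MT-ATP8 by 0.34 ± 0.07 (adjusted p = 0.011), and both lost their call without resistant indisulam replicate 1 (0.41 and 0.33), as MT-ND3 did without either resistant untreated library (0.44 and 0.47). MT-ND6 was at 106 and 131 CPM off and 153 and 159 CPM on the drug, a difference of 0.40 ± 0.12 (adjusted p = 0.047) that was lost without any 1 of 6 libraries, all but the 2 resistant untreated ones. The other 9 mRNAs were not called and lay between −0.07 (MT-ND5) and 0.39 (MT-ATP6).

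Of the noncoding genes, MT-RNR1 was higher by 0.21 ± 0.03 (adjusted p = 1.6e-06), MT-TQ by 0.74 ± 0.16 (adjusted p = 0.00052) and MT-TA by 1.14 ± 0.24 (adjusted p = 0.00043). MT-TQ had 89 and 112 reads off and 186 and 208 on the drug, and MT-TA had 26 and 29 reads off and 60 and 83 on it. MT-TQ and MT-TA are both minus-strand tRNAs, whose class was higher by 0.37 ± 0.12 (adjusted p = 0.022). The class call was lost without parental untreated replicate 2, resistant untreated replicate 1 or either resistant indisulam library, where the difference lay between 0.14 and 0.40.

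The drug comparison therefore differed between the lines, and the interaction term tests that difference. It was higher in resistant cells for 19 of 23 members and lower for none, where 50.1% of all tested genes were called and 22.7% were called higher. The sum differed by 0.89 ± 0.15 (adjusted p = 0.0064). All 13 mRNAs passed, from 0.63 ± 0.16 for MT-ND6 (adjusted p = 0.034) to 1.26 ± 0.18 for MT-CYB (adjusted p = 0.005). MT-ATP6 and MT-ATP8, the ATP synthase subunits, differed by 1.24 ± 0.19 and 1.22 ± 0.10 (adjusted p = 0.0069 and 0.00021). Both rRNAs and the tRNAs MT-TA, MT-TQ, MT-TP and MT-TI passed too. The exposures of the lines were not alike, 18 h in 1 line against continuous growth on the drug in the other, so line and length of exposure cannot be told apart in this term. MT-ND6 lost the interaction call without any 1 of the parental or resistant indisulam libraries. MT-CO1 and MT-ND5 lost it without either parental untreated library, MT-CO2 without parental untreated replicate 2 (0.71) and MT-CO1 also without resistant untreated replicate 1 (0.69).

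Off the drug, resistant cells held fewer mitochondrial transcripts in sum than parental cells, though not in every class. The sum was lower by 0.36 ± 0.10 on the log2 scale (adjusted p = 0.034), with no overlap between the libraries given above. It lost its call without parental untreated replicate 1, parental untreated replicate 2 or resistant untreated replicate 1, where it lay between −0.42 and −0.28, and without a filter on low counts (adjusted p = 0.081). Of the 23 members, 12 were lower and 1 was higher, where 60.1% of all tested genes were called, 29.9% lower and 30.3% higher. The member called higher was MT-TT, and 5 members that were not called also had a positive difference. The plus-strand tRNAs, most of whose reads in resistant cells were of MT-TT, were higher by 0.73 ± 0.10 (adjusted p = 4.8e-07). Without parental untreated replicate 2 or resistant untreated replicate 1, 7 were called.

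The mRNAs called lower were MT-ND1, MT-ND2, MT-ND3, MT-ND4, MT-ND4L, MT-ND6, MT-ATP6, MT-ATP8 and MT-CO3. The MT-ND6 difference of −0.43 ± 0.12 (adjusted p = 0.031) lost its call without any 1 of the 6 libraries other than resistant untreated. MT-ND2 had the largest difference among them, −0.62 ± 0.12 (adjusted p = 0.011), with 2095 and 2255 CPM in parental and 1319 and 1504 CPM in resistant libraries. MT-ATP8 followed with −0.61 ± 0.07 (adjusted p = 0.00065). Without resistant untreated replicate 1, MT-ND1, MT-ND2, MT-ND4, MT-ND4L, MT-ATP6 and MT-CO3 were not called, with differences between −0.53 and −0.32. MT-ND1, MT-ND4, MT-ATP6 and MT-CO3 were also not called without either parental untreated library, and MT-ND2 without replicate 2 of that group. A replicate block ended the call of MT-ATP6 (adjusted p = 0.059). With only the 2 untreated groups in the fit this call was lost too (adjusted p = 0.073). Without a filter on low counts it did not pass either (adjusted p = 0.056). MT-CO1, MT-CO2, MT-CYB and MT-ND5 were not called. MT-ND5, which codes for a membrane subunit of complex I, had 1960 and 1960 CPM in parental and 2073 and 2391 CPM in resistant libraries, and it was the only mRNA with a positive difference (0.19 ± 0.10, adjusted p = 0.2). The rRNA class differed by −0.38 ± 0.04 (adjusted p = 6.2e-10).

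On the drug the order of the lines was reversed. Resistant cells held more mitochondrial transcripts than parental cells, by 0.52 ± 0.10 for the sum (adjusted p = 0.0082). Of the 23 members 18 were higher and none was lower, where 69.5% of all tested genes were called and 34.6% were called higher. Among the mRNAs 12 of 13 passed, led by MT-CYB (0.92 ± 0.13, adjusted p = 0.0029) and MT-ND5 (0.88 ± 0.10, adjusted p = 0.0014), and MT-ND6 did not (0.19 ± 0.11, adjusted p = 0.2). Without resistant indisulam replicate 1, MT-CO1, MT-CO3, MT-ND2, MT-ND3, MT-ND4 and MT-ND4L lost their call, with differences between 0.31 and 0.42, and MT-CO1, MT-CO3, MT-ND2 and MT-ND4 did so without parental indisulam replicate 2. MT-ND2 and MT-ND4 also lost it without either parental untreated library, without resistant indisulam replicate 2 and with a replicate block (adjusted p = 0.076 and 0.062), and MT-ND2 without either resistant untreated library. With only the 2 indisulam groups in the fit, MT-CO3, MT-ND2, MT-ND3 and MT-ND4 were not called (adjusted p = 0.056 to 0.091). Without a filter on low counts, MT-ND2 and MT-ND4 were not called (adjusted p = 0.075 and 0.07). The comparison of the treated lines shares its libraries with those above and is not independent of them.

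MT-TT was the member with the largest difference between the lines. It was called higher in resistant cells in both conditions, which was so for no mRNA. Parental libraries held 0.941 and 1.09 CPM of it when untreated and 0.894 and 0.917 CPM on the drug. Resistant libraries held 4.09 and 3.48 CPM when untreated and 3.95 and 4.21 CPM on the drug. In reads, in the same order, these were 103, 117, 67, 71, 303, 226, 266 and 405. All 4 resistant libraries lay above all 4 parental ones. This was also so for the mRNA MT-ND5, at 2052 to 2391 against 1073 to 1960 CPM, though its difference off the drug was not called. The log2 difference was 1.90 ± 0.12 for untreated cells (adjusted p = 2.4e-12) and 2.17 ± 0.13 for cells on indisulam (adjusted p = 5.1e-13). The drug itself changed MT-TT in neither line by a difference that passed the test (−0.17, adjusted p = 0.38, and 0.11, adjusted p = 0.41). MT-CYB, which adjoins MT-TT as the sequence above shows, differed by −0.34 ± 0.13 between untreated lines (adjusted p = 0.079) and was higher in resistant cells on the drug by 0.92 ± 0.13 (adjusted p = 0.0029). Whether the reads of MT-TT begin within MT-CYB was not tested, since the tables hold counts per gene.

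The other tRNAs did not share this pattern. MT-TI was lower in resistant untreated than in parental untreated cells by 0.94 ± 0.17 (adjusted p = 3.1e-05), with 1.57 and 1.79 CPM against 1.04 and 0.693 CPM. MT-TA, MT-TQ and MT-TP were higher in resistant than in parental cells on the drug, by 1.84 ± 0.27 (adjusted p = 1.8e-06), 0.84 ± 0.16 (adjusted p = 7.1e-05) and 0.61 ± 0.16 (adjusted p = 0.0021), and were not called off it. The tRNAs MT-TF, MT-TS1 and MT-TE passed in none of the 5 comparisons. At these depths a tRNA count is small, and 14 tRNAs could not be tested at all.

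**Figure D3:**
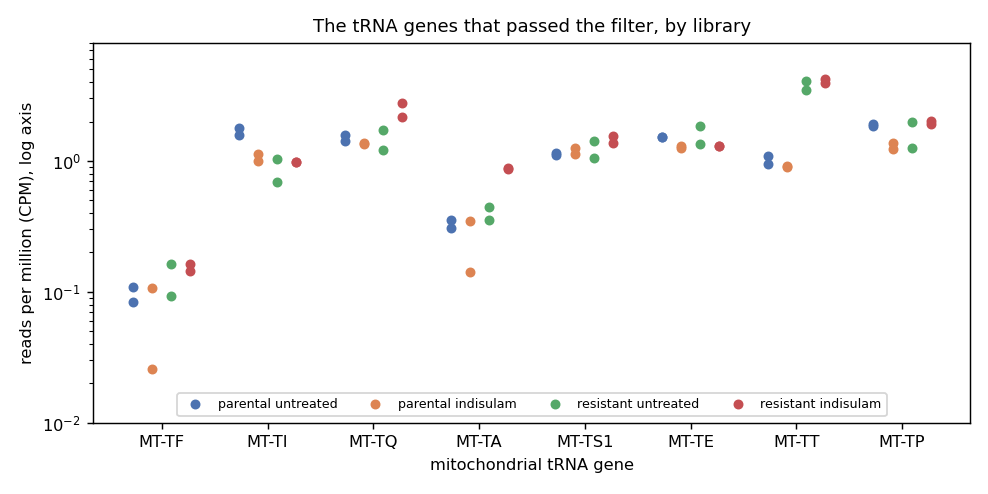
CPM (log axis) of the 8 tRNA genes that passed the filter, 1 point per library, coloured by group. For MT-TT the 4 resistant libraries lie between 3.48 and 4.21 CPM and the 4 parental ones between 0.894 and 1.09 CPM.

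The mix of mitochondrial reads also differed, which is given as a description with no test. MT-ND5 took 4.74% and 4.58% of mitochondrial reads in parental untreated and 4.61% and 4.62% in parental indisulam libraries. In resistant cells it took 6.85% and 6.89% off the drug and 5.88% and 6.01% on it. Its share was thus higher in every resistant than in every parental library. MT-CYB took between 7.15% and 7.45% in the 6 libraries of the other groups, against 9.55% and 9.47% in resistant indisulam cells.

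MT-ND6 took 0.371% and 0.388% of mitochondrial reads in parental untreated cells and 0.498% and 0.601% in parental indisulam cells. In resistant cells its share was 0.350% and 0.379% off the drug against 0.408% and 0.466% on it, so that the drug-treated libraries were higher within each line. MT-CO1 and MT-CO2 had higher shares in resistant untreated than in parental untreated cells, with 19.3% ± 0.270 against 18.1% ± 0.0236 and 11.95% ± 0.0553 against 10.83% ± 0.00163 (SD, n = 2). Other abundant mRNAs had lower shares: MT-CO3 with 8.62% ± 0.0127 against 9.86% ± 0.0434, MT-ND2 with 4.35% ± 0.0154 against 5.16% ± 0.142 and MT-ND4 with 16.02% ± 0.190 against 17.5% ± 0.0117 (SD, n = 2). By complex, the complex I mRNAs together stayed within 36.7% to 37.9% of mitochondrial reads in all 8 libraries, and the complex IV mRNAs took 39.9% ± 0.202 in resistant untreated against 38.8% ± 0.0653 in parental untreated cells.

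**Figure D4:**
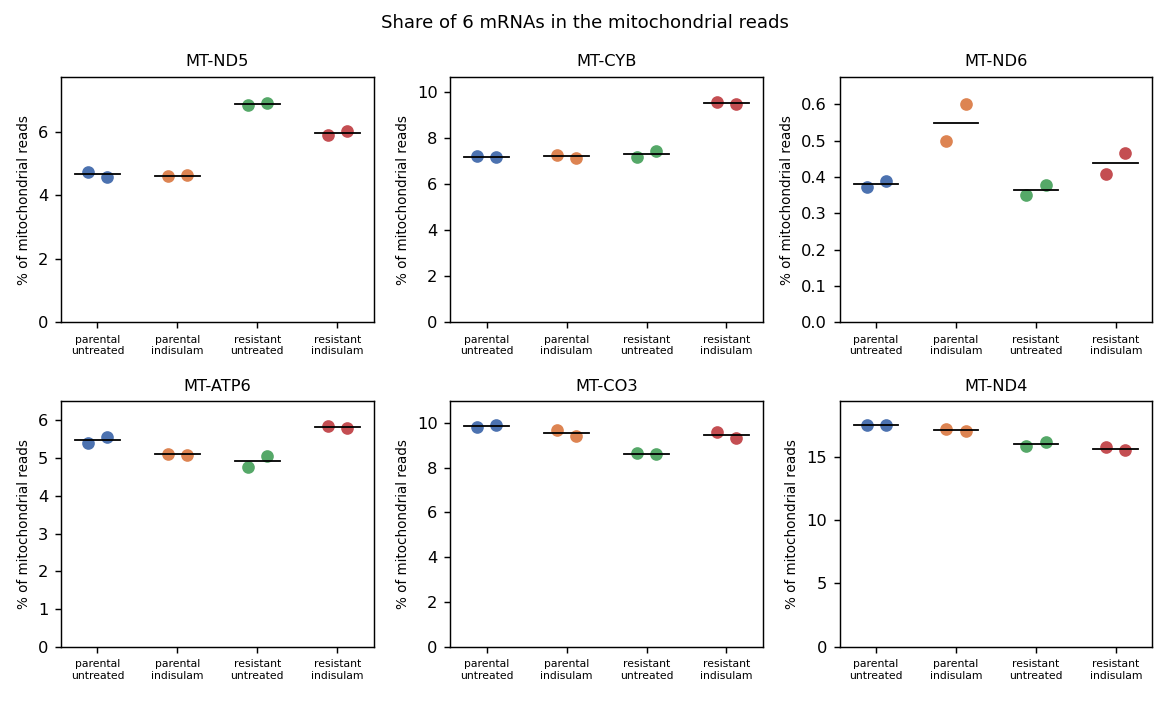
Share of 6 mRNAs in the mitochondrial reads (percent, vertical axes from 0), 1 point per library, with group means as lines. MT-ND5 is at 6.85% and 6.89% in resistant untreated libraries against 4.58% to 4.74% in parental libraries, and MT-CYB stands out in resistant indisulam libraries at 9.55% and 9.47%.

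The nuclear genes that make, process and translate these transcripts are given from lists of 163 genes, of which 162 were tested: upkeep of mitochondrial DNA, transcription, RNA processing and decay, tRNA and rRNA modification, translation factors and mitochondrial ribosomal proteins. Under the drug in parental cells, 84 were called higher and 22 lower, with a median log2 change of 0.10 against 0.01 over all genes, of which 31.6% were called higher and 26.6% lower. Scaled by library totals alone, the counts were 61 and 35. In resistant cells 4 were higher and 99 lower on the drug, with a median of −0.14, where 25.8% of all genes were called lower. Between the untreated lines 49 were higher and 51 lower in resistant cells, with a median of −0.01. These counts were near the shares over all genes, of which 30.3% were called higher and 29.9% lower. On the drug 14 were higher and 122 lower in resistant cells, with a median of −0.24, where 34.9% of all genes were called lower. For the interaction 10 were higher and 109 lower, with a median of −0.25, where 27.5% of all genes were called lower. Library totals alone gave 24 higher and 105 lower with a median of −0.15 between the treated lines, and 17 higher and 77 lower with a median of −0.14 for the interaction, where they moved the median of all genes to 0.13. These medians were of the opposite sign to those of the mitochondrial mRNAs in the drug comparisons of both lines, in the interaction and between the treated lines.

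For transcription, TFAM, which binds and packages mitochondrial DNA, went from 92.4 and 95.1 to 112 and 121 CPM when parental cells received the drug, a rise of 0.31 ± 0.03 (adjusted p = 1.5e-07). In resistant cells it was lower on the drug by 0.14 ± 0.04 (adjusted p = 0.0019). TFB2M, the initiation factor, rose by 0.30 ± 0.04 in parental cells (adjusted p = 3.9e-07) and was lower by 0.27 ± 0.04 in resistant cells on the drug (adjusted p = 3.3e-06). MTERF1, a termination factor, rose by 0.42 ± 0.04 in parental cells (adjusted p = 1.5e-08). POLRMT, the polymerase, went the other way and fell by 0.25 ± 0.07 (adjusted p = 0.014), from 53.1 and 50.1 to 45.3 and 41.4 CPM, a call that was lost without parental untreated replicate 1 (−0.21, adjusted p = 0.056). It was lower in resistant untreated than in parental untreated cells too, by 0.36 ± 0.07 (adjusted p = 0.0022). TEFM, the elongation factor, was called in no comparison. The transcription list had 3 of 10 genes higher and 2 lower in parental cells, close to the shares of 31.6% and 26.6% over all genes, and none higher and 5 lower in resistant cells, where 24.9% and 25.8% of all genes were called.

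Of the RNA processing and decay list, 9 of 24 genes were higher and 4 lower under the drug in parental cells. Over all genes, 31.6% were called higher and 26.6% lower there. In resistant cells none of the list was higher and 18 were lower, where 24.9% and 25.8% of all genes were called. PNPT1, the exonuclease that degrades mitochondrial RNA, had the largest difference of the list. Parental libraries held 111 and 113 CPM when untreated and 111 and 115 CPM on the drug, whereas resistant libraries held 193 and 187 CPM when untreated and 96.6 and 99.9 CPM on the drug. Only the resistant untreated libraries were high, by 0.76 ± 0.03 over parental untreated cells (adjusted p = 2.1e-16) and with a fall of 0.95 ± 0.03 on the drug (adjusted p = 1.9e-17). Its helicase partner SUPV3L1 was lower in resistant cells both off and on the drug, by 0.42 ± 0.03 and 0.64 ± 0.03 (adjusted p = 9.9e-11 and 3.5e-14). LRPPRC and SLIRP, which together bind mitochondrial mRNAs, were not called in parental cells (0.07 and −0.05, adjusted p = 0.051 and 0.41) and were lower on the drug in resistant cells by 0.12 ± 0.03 and 0.39 ± 0.05 (adjusted p = 0.0015 and 1e-04). The poly(A) polymerase MTPAP rose by 0.16 ± 0.04 in parental cells (adjusted p = 0.002), and ELAC2, which cuts tRNA 3′ ends, by 0.13 ± 0.03 (adjusted p = 0.001). Both calls were lost with library totals alone (0.089 and 0.059, adjusted p = 0.072 and 0.087), that of MTPAP also without parental indisulam replicate 1 (0.085, adjusted p = 0.15) and that of ELAC2 without parental indisulam replicate 2 (0.076, adjusted p = 0.11). GRSF1, an RNA granule protein, was called in no comparison.

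For upkeep of mitochondrial DNA, 7 of 12 genes were higher and 2 lower under the drug in parental cells, and 1 higher and 7 lower in resistant cells. Over all genes, 31.6% were called higher and 26.6% lower in parental cells, and 24.9% and 25.8% in resistant cells. TWNK, the replicative helicase, rose by 0.27 ± 0.03 in parental cells (adjusted p = 6e-08) and was lower on the drug in resistant cells by 0.22 ± 0.03 (adjusted p = 3.4e-06). POLG, the polymerase, was not changed by the drug in a way that passed the test in either line (adjusted p = 0.96 and 0.62). The nuclease MGME1 was higher in resistant than in parental untreated cells by 0.83 ± 0.03 (adjusted p = 2.4e-16). PPARGC1A, the coactivator PGC-1α, was at 0 in all parental libraries and at most at 27 reads in a resistant one. Of 9 tested regulators of biogenesis, which stand outside the 163 genes, 4 were higher and 3 lower in parental cells under the drug. In resistant cells 2 of them were higher and 4 lower. With so few genes, these counts are not set apart from the shares over all genes.

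For tRNA and rRNA modification, 12 of 24 genes were higher and 6 lower in parental cells under the drug. In resistant cells 1 was higher and 12 were lower, where 24.9% of all genes were called higher and 25.8% lower. Of 16 translation factors, 5 were higher and 3 lower in parental cells, where 31.6% and 26.6% of all genes were called, and none was higher and 8 were lower in resistant cells. MRRF, the ribosome recycling factor, rose by 0.40 ± 0.03 in parental cells (adjusted p = 6e-11) and was lower in resistant untreated than in parental untreated cells by 0.91 ± 0.03 (adjusted p = 5.8e-18). GUF1, an elongation factor, fell by 0.62 ± 0.03 in parental and 0.54 ± 0.03 in resistant cells (adjusted p = 3.5e-13 and 5.5e-12). Of 77 tested mitochondrial ribosomal proteins, 48 were higher and 5 lower under the drug in parental cells (34 and 11 when scaled by library totals alone), and 2 higher and 49 lower in resistant cells. MRPL50 had the largest difference between the untreated lines, lower in resistant cells by 0.82 ± 0.04 (adjusted p = 5.5e-14).

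The nuclear-encoded subunits of the respiratory chain and ATP synthase were a set taken by gene symbol after the mitochondrial values were known. The set included 81 tested genes. It takes in complex II, which has no subunit on the mitochondrial chromosome. In parental cells under the drug 46 were higher and 15 lower, with a median of 0.11, where 31.6% of all genes were called higher and 26.6% lower. In resistant cells 2 were higher and 64 lower, with a median of −0.19, where these shares were 24.9% and 25.8%. On the drug 62 of the 81 were lower in resistant than in parental cells and 4 higher. Over all genes, 34.9% were called lower and 34.6% higher in that comparison. NDUFS4, of complex I, rose by 0.42 ± 0.03 in parental cells (adjusted p = 2.2e-10), whereas ATP5MC1, of the ATP synthase ring, fell by 0.65 ± 0.04 (adjusted p = 4.3e-12).

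**Figure D5:**
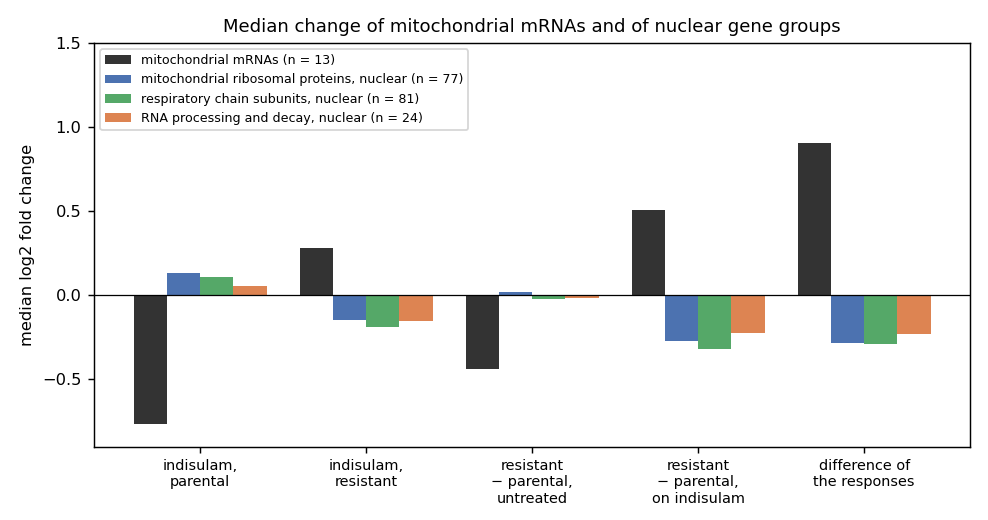
Median log2 fold change (vertical axis) of the 13 mitochondrial mRNAs and of 3 groups of nuclear genes in the 5 comparisons, as bars from 0. The mRNA medians are −0.77 in parental and 0.28 in resistant cells under the drug, where the ribosomal proteins have 0.13 and −0.15 and the respiratory subunits 0.11 and −0.19.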

How the data were processed

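The authors deposited raw counts of reads per gene, made from stranded libraries of polyadenylated RNA aligned with HISAT2 2.2.1 to GRCh38. The submitters' processing notes also name Picard and HTSeq. The strand setting and the annotation used for counting are not given in the sources used here. Of 60675 gene rows, 60419 matched GENCODE 44. The 9 rows for reads outside genes, duplicates among them (14.1% to 18.4% of listed reads), were left out of library sizes.

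Counts of all 8 libraries were fitted in edgeR 4.0.16 (filterByExpr, TMM, robust quasi-likelihood, 4 residual degrees of freedom, 16661 genes), with calls at an adjusted p (Benjamini-Hochberg) below 0.05. Sums and classes replaced the single genes in further fits. The SE is the log2 fold change divided by the square root of F. The fitting code was run on simulated counts in which genes varied independently with the same dispersion. That checks the code and not the calls on the mitochondrial genes. Sequences were read from GRCh38.

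The members, lists and tests were chosen with earlier results of these data known. Named were all mRNAs and rRNAs, the 3 called tRNAs with the largest change per comparison, 15 nuclear genes and the largest called changes of each list. Alternatives covered scaling, filter, test, samples, replicate block and each library left out. Replicates differed by more than sampling noise (mean chi-square per gene 2.08 to 6.08 over all genes and 139.5 to 1064 over mitochondrial genes with more than a few reads). This measure grows with the number of reads of a gene. Intervals of counting error are not given, since 2 libraries per group limit the precision.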

Additional observations from a re-analysis of the deposited data

Results flagged for a closer look

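These results stand out because the drug comparison differed between the lines by the interaction test. The difference is resistant minus parental, on the log2 scale, and every value listed had an adjusted p under 0.05. Exposure was 18 h in parental and continuous in resistant cells, so the term cannot tell line from exposure.

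Among the summed counts, the difference was 0.89 for all 37 mitochondrial genes, 0.91 for the plus-strand mRNAs, 0.68 for the rRNAs, 0.60 for the plus-strand tRNAs and 0.63 for the minus-strand tRNAs. Among complex I mRNAs it was 0.92 for MT-ND1, 1.01 for MT-ND2, 0.91 for MT-ND3, 0.89 for MT-ND4, 0.81 for MT-ND4L, 0.69 for MT-ND5 and 0.63 for MT-ND6. For the mRNAs of complexes III and IV it was 1.26 for MT-CYB, 0.78 for MT-CO1, 0.74 for MT-CO2 and 1.08 for MT-CO3, and for ATP synthase 1.24 for MT-ATP6 and 1.22 for MT-ATP8. The rRNAs MT-RNR1 and MT-RNR2 differed by 0.70 and 0.68, and the tRNAs MT-TA, MT-TI, MT-TP and MT-TQ by 1.59, 0.83, 0.84 and 0.90.

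Of the 162 nuclear genes of mitochondrial gene expression, 109 differed in the other direction and 10 in the same direction as the mitochondrial genes. Over all tested genes, 27.5% were called lower and 22.7% higher. For those of the 15 fixed nuclear genes that passed, the values were −0.45 for TFAM, −0.57 for TFB2M, −0.56 for MTERF1, −0.49 for TWNK, −0.96 for PNPT1, −0.22 for SUPV3L1, −0.32 for ELAC2, −0.25 for MTPAP, −0.34 for SLIRP and −0.19 for LRPPRC. With library totals alone, SUPV3L1, MTPAP and LRPPRC did not pass. The largest difference in the same direction as the mitochondrial genes was 0.33 for RPUSD3 (adjusted p = 0.00012), a pseudouridine synthase.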

How the results depend on the processing

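The summed mitochondrial count kept its direction in all 5 comparisons under every alternative, and in parental cells under the drug, between the treated lines and for the interaction it kept its call under all but the test against 0.5 log2 units. With 2 libraries per group from the same cells, the p-values say nothing of other cultures, and tRNA genes with few reads are the least precise. Tested against a change of 0.5 log2 units, 2, 1, 2, 5 and 4 members were called under the drug in parental and in resistant cells, between the untreated and the treated lines and for the interaction, and 2, 2, 7, 18 and 3 nuclear genes. Calls lost in that test were the sum (−0.75, −0.36, 0.52 and 0.89, in all comparisons but the drug in resistant cells), the plus-strand mRNAs (−0.77, −0.36, 0.55 and 0.91, likewise), the rRNAs between the untreated (−0.38) and treated lines (0.30), the plus-strand tRNAs in parental cells (−0.47) and for the interaction (0.60), the minus-strand tRNAs in resistant cells (0.37), between treated lines (0.60) and for the interaction (0.63), and MT-ND6 in resistant cells (0.40), between untreated lines (−0.43) and for the interaction (0.63).

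In parental cells the minus-strand tRNAs passed with library totals alone (−0.34), without a filter (−0.30), above a mean of 1 CPM (−0.33) and with only the groups compared (−0.29), and MT-ND6 passed with only the groups compared (−0.25). In resistant cells, only the groups compared gave 13 members called and calls for the sum (0.14) and the mRNAs (0.15), and the rRNAs passed with library totals (0.12) and a mean above 1 CPM (0.10). Without a filter, calls were lost for MT-ND6 in resistant cells (0.39), between untreated lines (−0.43) and for the interaction (0.65), and between untreated lines for the sum (−0.37) and the mRNAs (−0.37). The same setting ended the calls of MT-CYB in resistant cells (0.51), MT-ATP6 between untreated lines (−0.53) and MT-ND2 and MT-ND4 between treated lines (0.41 and 0.41). With only the groups compared, MT-ND6 lost its call between untreated lines (−0.43) and gained it between treated lines (0.20). In the same setting MT-ATP6 lost its call between untreated lines (−0.53) and MT-CO2 gained one there (−0.23). MT-CO3, MT-ND2, MT-ND3 and MT-ND4 lost theirs between treated lines (0.37 to 0.52). Library totals alone turned MT-CO2 in resistant cells to 0.013 and TRMU, a tRNA-modifying enzyme, between treated lines to 0.0010, and moved the median of all genes for the interaction from 0.01 to 0.13. Over gene, outside and ambiguous reads, the mitochondrial share was 3.74%, 2.14%, 2.88% and 3.24%. The causes were not tested.

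The deviations of same-numbered libraries from their group means were weakly correlated (from −0.19 to 0.14). With 2 libraries per group this check cannot tell whether same-numbered libraries share a batch. A replicate block brought MT-ND6 past the threshold in parental cells (−0.23) and between treated lines (0.19), and 4 calls of single members were lost with it.

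With each library left out, values in parental cells ranged from −0.28 to −0.17 for MT-ND6, −0.32 to −0.26 for the minus-strand tRNAs, both of which passed without either resistant untreated library, and −1.24 to 0.039 for MT-TA. In resistant cells they ranged from 3 to 8 members called, 0.039 to 0.10 for the rRNAs, −0.010 to 0.30 for plus-strand and 0.14 to 0.62 for minus-strand tRNAs, 0.25 to 0.55 for MT-ND6, −0.095 to 0.12 for MT-CO1, −0.12 to 0.054 for MT-CO2, −0.16 to 0.031 for MT-ND5, −0.086 to 0.51 for MT-TI and −0.0068 to 0.24 for MT-TT. Between untreated lines they ranged from 7 to 14 members called, −0.47 to −0.28 for the sum, −0.47 to −0.27 for the mRNAs, −0.58 to −0.28 for MT-ND6, −0.29 to 0.19 for the minus-strand tRNAs, −0.57 to 0.068 for MT-TP and −0.31 to 0.20 for MT-TQ. Between treated lines MT-ND6 ranged from 0.17 to 0.25 and MT-TI from −0.17 to 0.0007, and for the interaction MT-ND6 ranged from 0.50 to 0.80.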

Other observations

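The parental untreated libraries differed from each other at a few features. MT-TN, the asparagine tRNA, had 16 reads in replicate 2 and 0 in the other 7 libraries. The nuclear copy MTND2P28 had 3409 reads in replicate 2 and 1699 in replicate 1, which is 1.42% and 0.741% of the MT-ND2 count against 0.548% to 0.724% in the other groups. The copy MTCO3P12 went the other way, with 742 reads in replicate 1, 152 in replicate 2 and 52 to 117 in the other groups. These genes were chosen after their values were seen.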
